A study of Saccharomyces cerevisiae with 15 samples.

Results

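Budding yeast carries the genes of its respiratory chain and mitochondrial ATP synthase in the nucleus and in mitochondrial DNA. The 38 nuclear genes described here were chosen by name and role, with no measured value in the rule. They are 3 NADH dehydrogenase genes, 4 of complex II, 9 of complex III, 7 of complex IV, 5 of the F1 head of ATP synthase, 8 of its stalk and membrane part, and 2 inhibitors of its ATPase activity. Each of the 38 was measured, by 1 probe set that was called present on all 15 arrays, among 5588 yeast genes in all.

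The study followed RNA of Saccharomyces cerevisiae in arsenate (AsV), the pentavalent form of arsenic, on 15 Affymetrix expression arrays in 5 groups of 3. Untreated wild-type cells stand for 0 min. The other 4 groups are wild type, yap1, yap8 and y1y8 at 60 min with AsV. The labels do not spell out the mutants, whose names match the regulator genes YAP1 and YAP8 (ARR1). The series' design text gives 2 mM AsV, growth into exponential phase in medium without uracil and leucine, and yap1yap8 double mutants that carry plasmids, empty or with YAP1 or YAP8. It does not say how the single mutants were made, which group held which plasmid, nor whether replicates come from separate cultures, and p-values therefore measure the spread between arrays. No untreated group was sampled at 60 min, so time and arsenate cannot be told apart. No mutant was sampled without AsV, so a difference in the response to AsV cannot be told apart from one already present without it.

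Electrons enter this chain from NADH through single-subunit dehydrogenases, since budding yeast has no complex I, and from succinate through complex II. Complex III passes them to cytochrome c and complex IV to oxygen, which builds the proton gradient that ATP synthase uses. When that gradient collapses the synthase can run backwards and split ATP, and the small proteins Inh1 and Stf1 bind the F1 head and block that reaction. Arsenate resembles phosphate and can take its place in the synthase reaction, and the transcription factors Yap1 and Yap8 control genes of oxidative stress and of arsenic resistance.

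Signals given below are deposited linear intensities after quantile normalization, and changes are log2 differences ± SE from limma with n = 3 arrays per group. Both are relative to the other genes on the arrays. A gene passed where its Benjamini-Hochberg adjusted p over 5588 genes was under 0.05. Deposited signals of the 38 genes ran from 71.1 (NDE2) to 7568.7 (ATP1), on arrays whose brightest probe set reached 10786.6 to 12565.3, and 32 of the 38 lay in the brightest 25% of genes. Replicates correlated across genes at 0.9802 to 0.9946. YAP1 had a mean log2 signal of 11.67 in treated wild type and 11.7 in yap8 but 9.21 in yap1 and 9.2 in y1y8. ARR1 had 11.23 and 10.99 in treated wild type and yap1 but 2.29 and 1.83 in yap8 and y1y8. Both were thus lowest in the groups named for their loss, but YAP1 kept a clear signal there. The reason was not tested.

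Over the 5 groups these genes varied less than most. The range between the highest and lowest group mean had a median of 0.337 (log2) for the 38 genes and 0.867 for all genes tested, or 0.483 and 0.889 with median centring, while the median SD between replicates was 0.102 and 0.123. INH1 had the widest range among the 38, at 2.75, followed by NDE2 at 1.85, COX4 at 1.34, STF1 at 1.23 and NDE1 at 1.18. QCR7, a small subunit of complex III, had the narrowest, at 0.065, which is under the SD between its own replicates of 0.091.

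**Figure D1:**
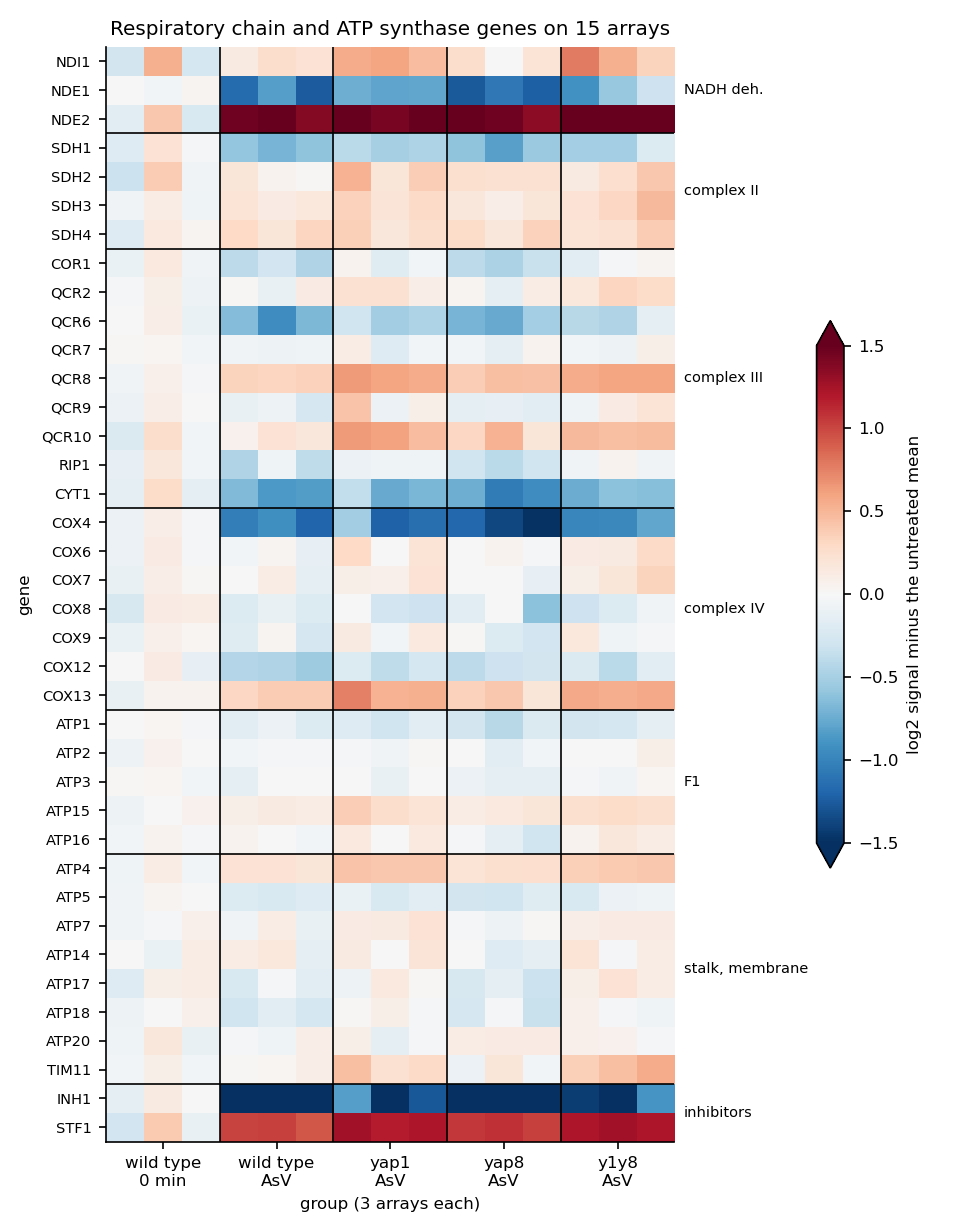
Heat map of the 38 genes (vertical axis, by complex) on the 15 arrays (horizontal axis, by group); colour gives the log2 normalized signal minus the gene's mean on the untreated arrays and is saturated beyond 1.5 in either direction. INH1, NDE1 and COX4 are lower on all treated arrays than on the 3 untreated ones, and NDE2 and STF1 are higher. With the quantile normalization drawn here F1 subunits stay near their untreated means, but all 5 were lower in treated wild type with median centring.

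The first comparison set treated wild-type cells at 60 min against untreated cells at 0 min. With quantile normalization most respiratory chain and ATP synthase genes differed little, while a few single genes moved in opposite directions. INH1, an ATPase inhibitor, was 6.43-fold lower, COX4 of complex IV and the NADH dehydrogenase gene NDE1 were 2.07-fold and 2.11-fold lower, its paralog NDE2 was 2.82-fold higher and STF1, the other inhibitor, 1.99-fold higher. In all 17 of the 38 passed, 6 higher and 11 lower, which is 44.7% against 81.2% of all genes tested (41.9% higher and 39.2% lower). With median centring in place of quantile normalization the split was 2 higher and 25 lower, with 80.9% of all genes called. Treated and untreated arrays did not overlap for 20 of the 38 genes and for 82.5% of all genes, so a lack of overlap is the usual state in this comparison.

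The median absolute change was 0.168 (log2) for the 38 genes and 0.702 for all genes, 30 of 38 lay within 0.5 of no change against 2093 of 5588, and 4 reached 2-fold against 1958. With median centring the median absolute change was larger for the 38 genes, at 0.373 against 0.713, with 25 of 38 and 2035 of 5588 within 0.5. Under both scalings the sizes were thus smaller for the 38 genes than for all genes. The median signed change was -0.033 against 0.031 for all genes with quantile normalization. With median centring it was -0.32 against -0.031, and 33 of 38 values were negative, against 2860 of 5588. The 2 scalings part at bright probe sets. Among the brightest 25% of genes (1397) the median change was 0.29 with quantile normalization and 0.05 with median centring, and among the brightest 10% (558), which hold 12 of the 38, it was 0.40 and 0. Beside both of these sets the medians of the 38 genes, -0.033 and -0.32, were lower under each scaling.

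**Figure D2:**
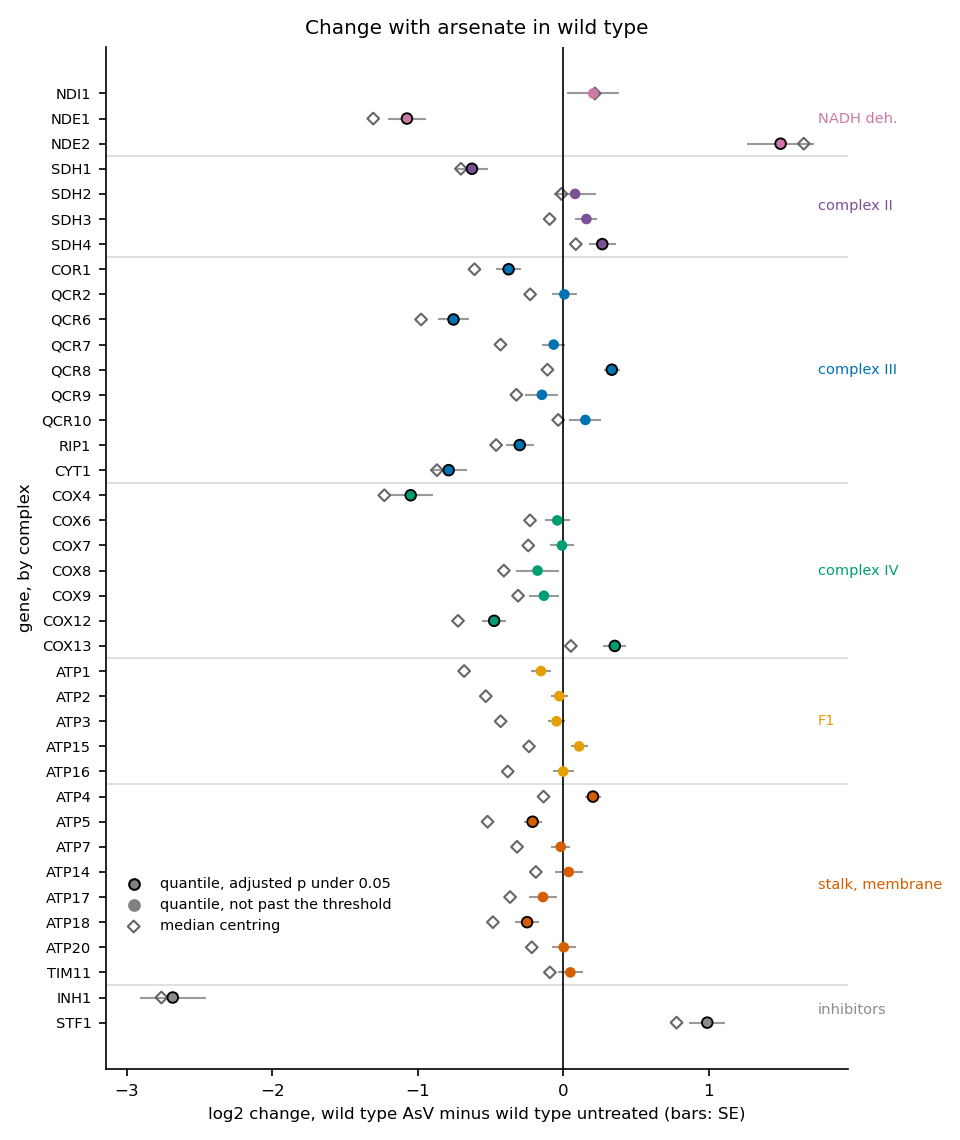
Log2 change (treated minus untreated wild type, horizontal axis, bars give SE) of each of the 38 genes (vertical axis, coloured by complex); a black outline marks the 17 with an adjusted p under 0.05, and open diamonds give the change with median centring. INH1 at -2.69 and NDE2 at 1.496 lie farthest from 0, and the 13 ATP synthase subunits lie between -0.25 and 0.21 with quantile normalization, though all 13 are negative with median centring.

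Both inhibitors of the ATPase changed, in opposite directions. INH1 (YDL181W) encodes the main ATPase inhibitor of budding yeast. Its normalized signal was 1897, 2285 and 2069 on the untreated arrays and 277, 373 and 326 on the treated ones. Every treated array was thus far under the lowest untreated one, and INH1 fell by 2.69 ± 0.23 (adjusted p = 1.02e-07), the 224th largest change in either direction among 5588 genes. STF1 (YDL130W-A) encodes a protein that is similar to Inh1. It was at 1896, 3027 and 2136 on the untreated arrays and at 4650.0, 4707 and 4397 on the treated ones. Untreated replicate 2 was the highest of its group and still well under all treated arrays, and STF1 rose by 0.99 ± 0.12 (adjusted p = 4.98e-06). Both calls held in all 13 alternative settings, with adjusted p up to 3.23e-06 for INH1 and 0.0013 for STF1. In the authors' deposited table of this comparison INH1 had a signed fold change of -5.35 (bounds -4.31 and -6.73) and STF1 one of 1.89 (bounds 1.47 and 2.64).

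The NADH dehydrogenases also split. NDE1 and NDE2 encode the external enzymes, which oxidize cytosolic NADH at the outer face of the inner membrane, and NDI1 the internal one, which takes NADH from the matrix. NDE1 was at 2965, 2887 and 3037 untreated and at 1336, 1667 and 1250.4 treated. NDE2 was at 124, 184 and 119 untreated and at 384, 438 and 362 treated. Neither gene had overlapping groups: NDE1 fell by 1.07 ± 0.13 (adjusted p = 3.99e-06) and NDE2 rose by 1.496 ± 0.23 (adjusted p = 4.33e-05), and both calls held in all 13 alternatives. NDI1 had the values 644, 1122 and 648 untreated and 852, 935 and 904 treated. Its treated arrays lay inside the range of the untreated ones, in which replicate 2 stood above the other 2, and the change was 0.21 ± 0.18 (adjusted p = 0.294). The authors' deposited table lists signed fold changes of -2.03 for NDE1 and 2.93 for NDE2.

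**Figure D3:**
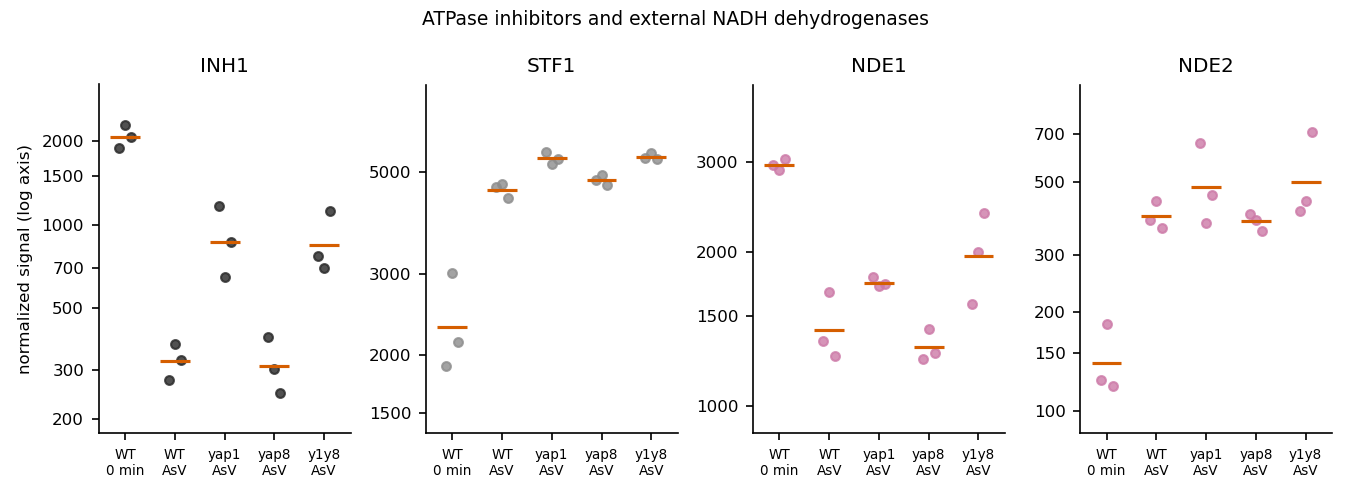
Normalized signal (vertical axis, log scale) of INH1, STF1, NDE1 and NDE2 on each of the 15 arrays, as 1 point per array by group (horizontal axis); short lines give group means of log2 values. INH1 runs from 249 to 395 in treated wild type and yap8 and from 650.0 to 1169 in yap1 and y1y8, and is highest on the untreated arrays.

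Complex II, succinate dehydrogenase, had 1 gene higher and 1 lower among 4. SDH1, the flavoprotein subunit, was at 1731, 2302 and 1943 untreated and at 1322, 1216 and 1307 treated, without overlap, and fell by 0.63 ± 0.11 (adjusted p = 0.000137). SDH4, a membrane anchor subunit, was at 2066, 2614 and 2439.8 untreated and at 2914, 2669.9 and 2965 treated. The lowest treated array was only just above the highest untreated one, and SDH4 rose by 0.27 ± 0.092 (adjusted p = 0.0156). That call ended with median centring (0.087, adjusted p = 0.465) and without untreated replicate 1 or treated replicate 3. SDH2, the iron-sulfur subunit, and SDH3, the other anchor, had changes of 0.082 ± 0.14 and 0.16 ± 0.076 and did not pass.

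Complex III, the cytochrome bc1 complex, had 4 of 9 genes lower and 1 higher. CYT1 encodes cytochrome c1 and was at 1916, 2546 and 1919 untreated and at 1330.0, 1163 and 1177 treated. QCR6, a small acidic subunit, was at 2903, 3113 and 2717 and 1853, 1518 and 1819. Every treated array was under every untreated one for both genes, with falls of 0.79 ± 0.13 (adjusted p = 6.4e-05) and 0.75 ± 0.11 (adjusted p = 1.81e-05). COR1, a core subunit, fell by 0.38 ± 0.085 (adjusted p = 0.0011). RIP1, the Rieske iron-sulfur protein, fell by 0.30 ± 0.096 (adjusted p = 0.0114), but its treated replicate 2, at 2353, lay inside the untreated range of 2256 to 2760. The RIP1 call ended without that group's replicate 1, without untreated replicate 2 and with only the compared groups.

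QCR8, another small subunit of complex III, went the other way. Its signal was 4279.8, 4681 and 4407 untreated and 5598, 5588 and 5663 treated, with 3 treated arrays close together above the untreated ones. The change was 0.33 ± 0.053 (adjusted p = 5.13e-05) with quantile normalization but -0.108 (adjusted p = 0.317) with median centring, so its direction depends on the scaling. QCR2, the second core subunit, and QCR7, QCR9 and QCR10 did not pass, at 0.0082, -0.065, -0.15 and 0.15. Median centring lowered all of complex III, with 9 of 9 values negative, 7 lower past the threshold and a median of -0.431, against -0.146 with quantile normalization.

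In complex IV, cytochrome c oxidase, 2 of 7 genes fell and 1 rose. COX4, a subunit that binds zinc, was at 2475, 2838 and 2613 untreated and at 1286, 1398 and 1153 treated. All treated arrays were well under the untreated ones, and COX4 fell by 1.05 ± 0.15 (adjusted p = 2.17e-05). COX12, a subunit facing the intermembrane space, was at 3158, 3424 and 2881 and 2319.6, 2299 and 2178, did not overlap and fell by 0.47 ± 0.082 (adjusted p = 0.000106). COX13, a peripheral subunit, was at 2852, 3194 and 3182 and 3816, 3986 and 3986, and rose by 0.36 ± 0.078 (adjusted p = 0.000865) with quantile normalization. With median centring its change was 0.053 and did not pass (adjusted p = 0.646). COX6, COX7, COX8 and COX9 lay between -0.18 and -0.0084 and did not pass, although with median centring all 4 passed as lower, at -0.228 to -0.408.

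No gene of the F1 head, the catalytic part of ATP synthase, passed the limma threshold with quantile normalization. Changes of the 5 genes ran from -0.15 (ATP1, the alpha subunit) to 0.11 (ATP15, epsilon). Of the 5, 1 had an unadjusted p under 0.05, against 4578 of all 5588 genes. With median centring all 5 passed as lower (-0.681 to -0.235). ATP2, the beta subunit that carries the catalytic sites, was at 5153, 5682 and 5417 untreated and at 5244, 5358 and 5343 treated. Its treated arrays lay inside the untreated range, and the change was -0.026 ± 0.06 (95% interval -0.16 to 0.10). ATP3, the gamma subunit that turns within F1, had a change of -0.045 ± 0.059 (interval -0.17 to 0.083).

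In the stalk and membrane part of the synthase 2 of 8 genes were lower and 1 higher, by at most 0.25. ATP18 (subunit i/j) was at 2685, 2854 and 2988 untreated and at 2303, 2514 and 2362 treated, and fell by 0.25 ± 0.08 (adjusted p = 0.0115). ATP5, the subunit that ties the head to the peripheral stalk, was at 3333, 3565 and 3459.5 and 2982, 2956 and 3013, and fell by 0.21 ± 0.062 (adjusted p = 0.00677). ATP4, the main peripheral stalk subunit, was at 3493, 3939.7 and 3538 and 4234, 4254 and 4143. Like those of most genes, the groups of these 3 did not overlap, but the ATP4 rise of 0.21 ± 0.055 (adjusted p = 0.00362) was -0.135 (adjusted p = 0.11) with median centring. The other 5, ATP7, ATP14, ATP17, ATP20 and TIM11, lay between -0.14 and 0.05.

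The authors' deposited table of this comparison lists 8 of the 38 genes, 6 lower and 2 higher. It has 3702 entries, on arrays of 10928 probe sets of which 1746 were of another species. The entries are the authors' own selection, which does not follow the limma threshold. Besides the inhibitors and the external NADH dehydrogenases the 8 genes include CYT1 (-1.82), COX4 (-1.85), QCR6 (-1.45) and COX12 (-1.35), all signed fold changes. The count in the limma fit ran from 16 to 20 when 1 array was left out. Without untreated replicate 2, which was the brightest of its group for 32 of the 38 genes, 10 were higher and 10 lower, with 81.4% of all genes called.

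The second comparison set yap1 against wild type, both with AsV, and asked which of the 38 genes differ there. INH1 was the gene that stood out, 2.69-fold higher in yap1, while 8 other genes were higher by 1.15-fold to 1.33-fold. In all 9 of 38 passed as higher and none as lower, which is 23.7% against 19% of all genes (9.61% higher and 9.34% lower). The median change was 0.186 against 0.048 for all genes, and 34 of 38 values were positive, against 3325 of 5588. With median centring 9 passed as well, 8 of them the same genes, and all 38 values were positive, against 3478 of 5588. Arrays of yap1 and wild type did not overlap for 17 of the 38 genes and for 40.9% of all genes.

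INH1 signal was 277, 373 and 326 in treated wild type and 1169, 650.0 and 864 in yap1. All yap1 arrays were above all treated wild-type arrays and below the lowest untreated array at 1897, although the yap1 arrays themselves ran from 650.0 to 1169. The change was 1.43 ± 0.23 (adjusted p = 0.000569), the 81st largest of 5588 in either direction, and it passed in all 13 alternatives (1.21 and adjusted p = 0.00456 at the least). The authors' deposited table of this comparison has 553 entries and lists INH1 alone among the 38, at a fold change of 2.49 (bounds 1.76 and 3.38). Those entries are the authors' own selection and do not follow the limma threshold.

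Complex III held 4 of the other 8 genes. QCR10, a small subunit, was at 2583, 2874 and 2769 in wild type and at 3822, 3736 and 3406 in yap1, a rise of 0.41 ± 0.11 (adjusted p = 0.0183). QCR8 was at 5598, 5588 and 5663 and 6951, 6691 and 6544, a rise of 0.26 ± 0.053 (adjusted p = 0.00378). QCR6 was at 1853, 1518 and 1819 and 2366, 2019.5 and 2115, a rise of 0.33 ± 0.11 (adjusted p = 0.0488). COR1 signal was 2219.6, 2392 and 2122 in wild type and 3024, 2567 and 2829.6 in yap1, a rise of 0.32 ± 0.085 (adjusted p = 0.0181). These 4 genes are among the 17 without overlap, and yap1 replicate 1 was the highest yap1 array for each.

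The remaining 4 belong to complex IV and the synthase. COX13 was at 3816, 3986 and 3986 in wild type and at 5176, 4397 and 4459 in yap1, a rise of 0.25 ± 0.078 (adjusted p = 0.0415). ATP4 was at 4234, 4254 and 4143 and 4907, 4851 and 4817, a rise of 0.21 ± 0.055 (adjusted p = 0.0185). Replicates of ATP4 lay close together in both groups. ATP18 was at 2303, 2514 and 2362 and 2878, 3009 and 2801, a rise of 0.28 ± 0.08 (adjusted p = 0.0286). TIM11, subunit e, which takes part in forming synthase dimers, was at 2336, 2358 and 2459.8 and 3151, 2705 and 2821, a rise of 0.28 ± 0.085 (adjusted p = 0.0379). All 4 of these genes are also among the 17 without overlap. Replicate 1 was the highest yap1 array for each of them except ATP18, and for INH1 as well.

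Of these 9 genes INH1 and QCR8 passed in all 13 alternatives, while the calls ended in 2 of them for ATP4, 3 for QCR10, 4 for COR1, 5 for ATP18, 6 for TIM11, 7 for QCR6 and 8 for COX13. The count was 2 without yap1 replicate 1, 3 without treated wild-type replicate 1 or replicate 3, and 4 without yap1 replicate 3, with 14% to 14.6% of all genes called in those fits.

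**Figure D4:**
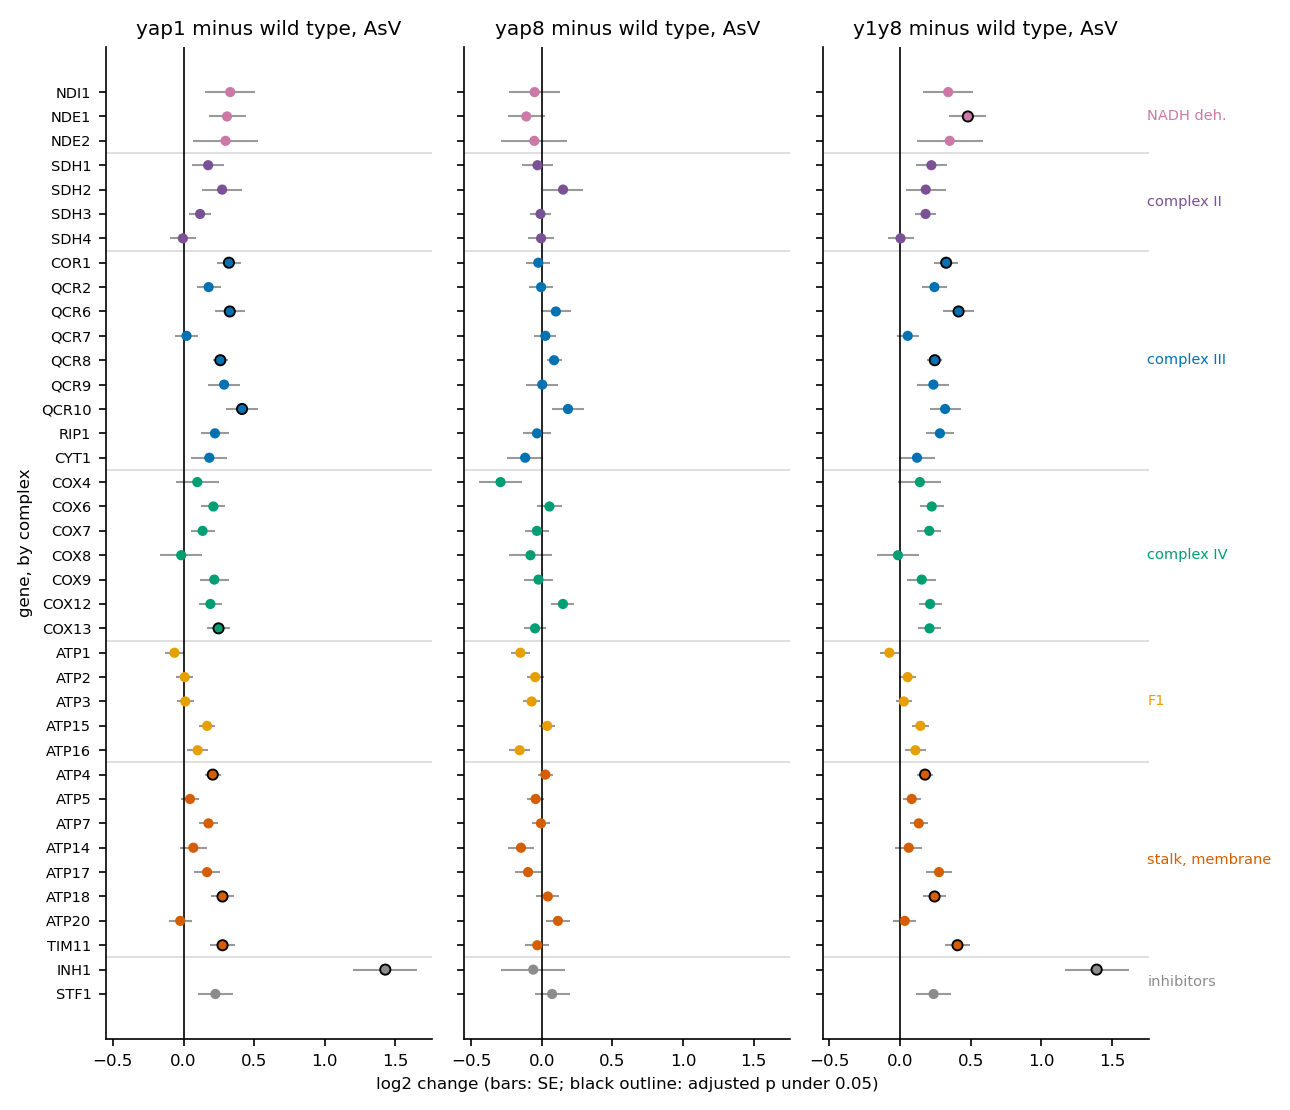
Log2 change ± SE (horizontal axis) of each of the 38 genes (vertical axis, by complex) in yap1, yap8 and y1y8 against treated wild type; black outlines mark an adjusted p under 0.05. Outlined genes number 9 in yap1, 0 in yap8 and 8 in y1y8, and INH1 lies apart from the rest at 1.43 and 1.39 in yap1 and y1y8.

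The third comparison set yap8 against wild type with AsV. None of the 38 genes passed in limma, beside 0.125% of all genes. An unadjusted p under 0.05 was found for 2 of the 38 and for 368 of all 5588 genes. Changes ran from -0.29 (COX4) to 0.19 (QCR10) with a median of -0.028. INH1 signal was 395, 303 and 249 in yap8, which overlaps the wild-type range of 277 to 373, and its change was -0.061 ± 0.23 (95% interval -0.55 to 0.43). Changes of STF1 and NDE2 were 0.073 ± 0.12 and -0.053 ± 0.23. The authors' deposited table of this comparison lists none of the 38 genes among its 25 entries. A difference of INH1 as large as that in yap1 lies outside this interval.

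The fourth comparison set y1y8, whose label stands for both regulators, against treated wild type. In all 8 of 38 genes passed as higher and none as lower, 21.1% against 20% of all genes (10.1% higher and 9.88% lower). The median change was 0.207 against 0.052 for all genes, and 36 of 38 values were positive, against 3414 of 5588. Groups did not overlap for 21 of the 38 genes and for 41.4% of all genes. This comparison and those of yap1 and yap8 use the same 3 wild-type arrays, so their values stand side by side and are not independent.

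INH1 signal was 771, 702 and 1124 in y1y8, above every wild-type array, and rose by 1.39 ± 0.23 (2.62-fold, adjusted p = 0.00066). NDE1 was at 1336, 1667 and 1250.4 in wild type and at 1582, 2003 and 2383 in y1y8. The lowest y1y8 array lay under the highest wild-type array, and the rise of 0.48 ± 0.13 (adjusted p = 0.0199) ended in 5 of 13 alternatives. TIM11 was at 2950.3, 3151 and 3392 in y1y8, above all wild-type arrays, and rose by 0.41 ± 0.085 (adjusted p = 0.00416). The INH1 and TIM11 calls held in all 13 alternatives.

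Complex III gave 3 genes in y1y8. QCR6 was at 2176, 2117 and 2626 and rose by 0.41 ± 0.11 (adjusted p = 0.0152), beside a rise of 0.33 in yap1. COR1 was at 2614, 2841 and 2988 and rose by 0.33 ± 0.085 (adjusted p = 0.0161), beside 0.32 in yap1. QCR8 was at 6568, 6715 and 6691 and rose by 0.25 ± 0.053 (adjusted p = 0.00513), a call that median centring alone ended. The COR1 call ended in 4 of 13 alternatives and the QCR6 call in 2, all with 1 array left out. These 3 genes are among the 21 without overlap.

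The last 2 genes were again ATP18 and ATP4 of the synthase. ATP18 was at 2988, 2808 and 2709 in y1y8 and rose by 0.24 ± 0.08 (adjusted p = 0.048). ATP4 was at 4670.1, 4790.1 and 4817 and rose by 0.18 ± 0.055 (adjusted p = 0.0384). Neither overlapped with wild type, but the calls ended in 7 and 9 of 13 alternatives. QCR10 and COX13, which passed in yap1, had changes of 0.32 ± 0.11 and 0.21 ± 0.078 here and did not pass. The count was 5 with median centring, 3 without y1y8 replicate 3, 4 without treated wild-type replicate 1, and 5 without treated wild-type replicate 3 or y1y8 replicate 2. In those fits 16.2%, 18.1%, 14.3%, 15.1% and 15.1% of all genes were called, beside which 3 of 38 is a smaller share.

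The treated mutants were then set against each other. Between yap1 and yap8, 8 genes were higher in yap1 and none lower (21.8% of all genes passed, 11.1% higher and 10.6% lower). INH1 was 2.81-fold higher in yap1 (1.49 ± 0.23, adjusted p = 0.000355), with no yap8 array above 395 and no yap1 array below 650.0. NDE1 was at 1786, 1712 and 1727 in yap1 and at 1237, 1413 and 1268 in yap8, a difference of 0.42 ± 0.13 (adjusted p = 0.0372). ATP16, the delta subunit of F1, was at 4505, 4072 and 4479 in yap1 and at 3963, 3678 and 3303 in yap8, a difference of 0.26 ± 0.072 (adjusted p = 0.0226). For both genes all yap1 arrays were above all yap8 arrays, and groups did not overlap for 20 of the 38 genes and 40.1% of all genes.

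The other 5 were COR1, TIM11, COX13, ATP4 and QCR8, whose yap1 values are given above. In yap8 COR1 was at 2215, 2094 and 2306, a difference of 0.35 ± 0.085 (adjusted p = 0.0108). TIM11 was at 2162, 2621 and 2236 in yap8, with replicate 2 the highest, a difference of 0.31 ± 0.085 (adjusted p = 0.0209). COX13 was at 3903, 4052 and 3470.2, with replicate 3 the lowest, a difference of 0.30 ± 0.078 (adjusted p = 0.0165). These 3 genes lay lower on every yap8 array than on any yap1 array. ATP4 was at 4210.5, 4311 and 4331 in yap8, a difference of 0.18 ± 0.055 (adjusted p = 0.0321), and QCR8 at 5759, 6084 and 6055, a difference of 0.17 ± 0.053 (adjusted p = 0.0331). The INH1 call held in all 13 alternatives, and the others ended in 1 of them for COR1, 3 for COX13, 4 each for TIM11 and ATP16, 5 for NDE1, 7 for ATP4 and 8 for QCR8. The count was 5 with only the compared groups (21.2% of all genes called), 1 without yap1 replicate 1 (15.6%), 2 without yap8 replicate 3 (15.4%), 4 without yap1 replicate 3 (15.9%) and 5 without yap8 replicate 1 (16.4%).

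Between y1y8 and yap8, whose labels differ by the YAP1 loss, 8 genes were again higher and none lower in y1y8 (19.2% of all genes passed, 9.22% higher and 9.97% lower). INH1 differed by 1.45 ± 0.23 (adjusted p = 0.000446), NDE1 by 0.59 ± 0.13 (adjusted p = 0.00608) and TIM11 by 0.44 ± 0.085 (adjusted p = 0.0025). ATP17, subunit f of the membrane part, was at 2926, 3220.5 and 2972 in y1y8 and at 2334, 2510.0 and 2201 in yap8, a difference of 0.37 ± 0.094 (adjusted p = 0.0132). RIP1 was at 2372, 2551 and 2379.9 and 2005, 1859.9 and 2002, a difference of 0.32 ± 0.096 (adjusted p = 0.0349). ATP17 and RIP1 are among the 26 of the 38 genes whose groups did not overlap, a larger share than the 38.7% of all genes. COR1 differed by 0.35 ± 0.085 (adjusted p = 0.0107). ATP16 was at 4207, 4554 and 4364 in y1y8 and differed by 0.27 ± 0.072 (adjusted p = 0.0202), and COX13 was at 4567, 4479 and 4572 and differed by 0.26 ± 0.078 (adjusted p = 0.0351). The calls of INH1, NDE1, TIM11 and COR1 held in all 13 alternatives, and the others ended in 2 of them for ATP17, 4 for ATP16, 6 for RIP1 (each array left out) and 8 for COX13. The count was 4 without y1y8 replicate 2 (14.7% of all genes called), 5 without yap8 replicate 3 (13.9%) and 14 with a variance trend (20.3%).

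Between y1y8 and yap1, whose labels differ by the YAP8 loss, no gene of the 38 passed in limma, beside 0.0895% of all genes. None of the 38 had an unadjusted p under 0.05, against 380 of all 5588 genes. Changes ran from -0.096 to 0.17 (log2), and INH1 differed by -0.036 ± 0.23 (95% interval -0.53 to 0.46). The departure of the double mutant from the sum of both single losses was tested as well. Here too no gene of the 38 passed in limma, beside 0.0537% of all genes. No unadjusted p of the 38 was under 0.05, against 237 of all 5588 genes. For INH1 the departure was 0.024 (95% interval -0.67 to 0.72).

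The order of INH1 levels over the 5 groups was untreated wild type, then yap1 and y1y8 with AsV, then treated wild type and yap8. Within each of the 2 pairs the arrays overlapped, and between neighbouring steps they did not. STF1 had another order. It was at 5541, 5206 and 5336 in yap1, 4817, 4944 and 4699 in yap8 and 5365, 5509.7 and 5330.0 in y1y8, above all untreated arrays in each. Its changes against treated wild type of 0.23 ± 0.12 in yap1 (adjusted p = 0.231) and 0.24 ± 0.12 in y1y8 (adjusted p = 0.198) did not pass. NDE2 was at 660.2, 375 and 456 in yap1, 400.3, 384 and 355 in yap8 and 407, 437 and 711 in y1y8, all above the untreated range of 119 to 184, and did not pass against treated wild type. COX4, at 1840.3, 1140.0 and 1209 in yap1, 1165, 1024 and 946 in yap8 and 1343, 1349 and 1532 in y1y8, stayed below every untreated array in all 3 mutants.

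Other genes of the respiratory system were listed beside the 38, by role, and 105 of 113 were measured. The 7 subunits encoded in mitochondrial DNA and COX26 were not matched to a probe set and are not analysed here. In treated wild type 41 of the 105 rose and 39 fell, with a median of -0.013, so that 76.2% passed, near the 81.2% of all genes. The lists below are given by their counts beside that share. Among 11 other subunits and electron carriers 5 rose and 2 fell (63.6% called). SHH3, a paralog of SDH3, rose 24-fold (4.58 ± 0.25, adjusted p = 1.12e-09), from between 23.7 and 55.1 on the untreated arrays to between 866 and 1061 on the treated ones. CYB2, the lactate dehydrogenase that feeds cytochrome c, rose by 1.66 ± 0.12, and ATP19, subunit k of the synthase, fell by 1.23 ± 0.18.

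Of 5 carriers of ADP, ATP and phosphate, which supply the synthase, 3 fell and none rose (60% called). PET9, the main ADP/ATP carrier, fell by 1.24 ± 0.11 (adjusted p = 1.96e-07), its paralog AAC3 by 1.24 ± 0.17 and the phosphate carrier MIR1 by 0.77 ± 0.062. In the citric acid cycle 6 of 10 genes were lower and 3 higher (90% called). ACO1, aconitase, fell by 1.78 ± 0.15 (adjusted p = 1.25e-07) and LSC2, a succinyl-CoA ligase subunit, by 1.01 ± 0.12, while CIT1, citrate synthase, rose by 0.51 ± 0.081 with quantile normalization and did not pass with median centring (0.119, adjusted p = 0.244). The other 2 rises of the cycle did not pass with median centring either.

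Assembly factors and translational activators moved both ways, and their lists and the ubiquinone genes had 72.7% to 80% called, under the 81.2% of all genes. For complexes II and III 8 of 16 rose and 4 fell, led by CBS1, an activator of cytochrome b translation (1.41 ± 0.075), SDH8 (1.22 ± 0.11) and CBT1 (0.96 ± 0.057). For complex IV 9 of 30 rose and 15 fell, and the largest falls were those of PET309, an activator of COX1 translation (-1.56 ± 0.17), COX10, which makes haem O (-1.19 ± 0.084), and COA2 (-1.03 ± 0.089). For the synthase 5 of 12 rose and 4 fell, with ATP22 at 1.58 ± 0.11, AEP2 at -1.48 ± 0.12 and ATP23 at -0.95 ± 0.074. Of 11 ubiquinone synthesis genes 5 were higher and 3 lower, with COQ4 at 1.39 ± 0.12, COQ2 at -1.27 ± 0.084 and COQ11 at 1.22 ± 0.12.

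Among 10 regulators of respiratory genes 6 rose and 2 fell, 80% called beside 81.2% of all genes. HAP4, the activating subunit of the Hap2/3/4/5 complex, was between 756 and 827 on the untreated arrays and between 204.5 and 301 on the treated ones, and fell by 1.61 ± 0.22 (adjusted p = 1.29e-05). RTG2, a sensor of the retrograde pathway from mitochondria to the nucleus, rose by 1.62 ± 0.063 (adjusted p = 4.3e-11) and RTG1, a transcription factor of that pathway, by 1.55 ± 0.21 (adjusted p = 1.08e-05). Medians of the lists ran from -0.766 for the carriers to 0.776 for the regulators, beside -0.033 for the 38 genes and 0.031 for all genes.

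**Figure D5:**
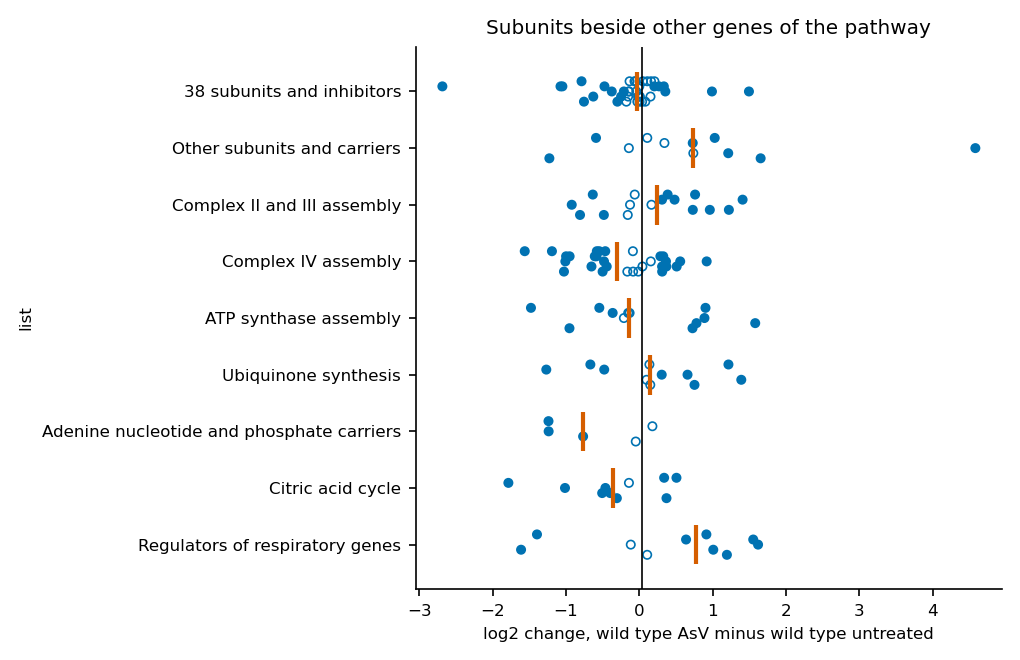
Log2 change in treated against untreated wild type (horizontal axis) for the 38 genes and 8 lists of related genes (vertical axis), 1 point per gene, filled where the adjusted p was under 0.05; bars give each list's median and the black line the median of all genes. The 38 genes cluster near 0, with a median of -0.033, or -0.32 with median centring, while the carriers lie lower, at -0.766.

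Of the 105 genes 7 rose and 10 fell in yap1, and 6 rose and 12 fell in y1y8. These are 16.2% and 17.1% of the 105, under the 19% and 20% of all genes. CYC1, the main cytochrome c, was between 1475 and 1502 in treated wild type, between 762 and 779 in yap1 and between 782 and 867 in y1y8. It fell by 0.95 ± 0.066 in yap1 (adjusted p = 1.94e-07) and by 0.87 ± 0.066 in y1y8 (adjusted p = 4.16e-07). The list of CYC1 also held 2 rises in yap1. COX5B was between 2873.5 and 2951.6 in treated wild type and between 3703.7 and 4092.1 in yap1. CYB2 was between 535.6 and 541.5 in treated wild type and between 679.7 and 778.2 in yap1, and it passed as higher in y1y8 too. In yap1 the calls of COX5B and CYB2 ended in 3 and 6 of 13 alternatives, and the y1y8 call of CYB2 ended in 7. Among regulators ROX1, a repressor of hypoxic genes, fell by 1.22 ± 0.19 in yap1 and 0.82 ± 0.19 in y1y8, and RTG2 by 0.55 ± 0.063 and 0.54 ± 0.063. In complex II and III assembly CBS1 fell by 0.83 in yap1 and 0.77 in y1y8, CYT2, which attaches haem to cytochrome c1, by 0.82 and 0.74, and CBP3 by 0.59 and 0.66. COX15, which makes haem A, fell by 0.77 and 0.88, while COA2 rose by 0.50 and 0.50 and COX10 by 0.48 and 0.46. Smaller falls were those of COQ1 (-0.46 and -0.54), COQ8 (-0.45 and -0.40) and ATP22 (-0.50 and -0.43), and IDH1, an isocitrate dehydrogenase subunit, rose by 0.34 and 0.33. The y1y8 calls of ATP22 and IDH1 ended in 4 and 1 of 13 alternatives, all of which left out 1 array. IDH2 of the citric acid cycle also passed as higher in yap1, a call that held in all 13 alternatives. MIR1 passed as higher in y1y8, a call that ended in 7 of 13. In yap8 none of the 105 genes passed in limma, and 3 had an unadjusted p under 0.05, against 368 of all 5588 genes.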

How the data were processed

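RNA of 15 samples, 3 in each of 5 groups named by the labels, was isolated with hot phenol and labelled with biotin, per the labels' protocols. The authors deposited a linear intensity and a detection call for each of 10928 probe sets per array. The submitters' processing notes name Partek, without saying how probes were summarised. Median intensity per array ran from 46.2 to 101.6. For 3 comparisons the authors deposited tables of signed fold changes (a score, negative where the treated or mutant group was lower) with bounds, of which 36 columns of per-sample values were not used. The series' design text names an S98 array, but the probe set identifiers, which were followed, are those of a later yeast array. For replicate 2 of treated wild type a file name holds unexplained letters (RH), and this array stayed in the fits.

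Probe sets were named from the platform annotation (5498) or the deposited tables (140), 1746 were of another species, 213 were controls and 3330 had no gene name. Of 48 genes with several probe sets the brightest was used, which left 5588 genes. Deposited intensities were quantile normalized, set to at least 1 and taken to log2. Group means of all 15 arrays were fitted with lmFit and eBayes from limma 3.58.1 under R 4.3.3 (two-sided, Benjamini-Hochberg over all genes, threshold 0.05) for 8 comparisons, after the code was tested on simulated data. Precision is limited by the number of arrays.

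The 38 genes and the lists of related genes were chosen with earlier results of these data known, and no list was tested as a set. Values on every array were given for each gene past the threshold in a mutant comparison. In wild type they were given for up to 2 genes per complex and direction. To these NDI1 and ATP2 were added after their values were seen. Mutant arrays of STF1, NDE2 and COX4, which passed in no mutant comparison, were given outside this rule. Of each related list up to 3 genes with the largest passing change were named. Alternatives were median centring, adding 16 before log2, leaving out dim genes (mean log2 under 2.79, which left 5568 genes), the mean of probe sets, only the compared groups, a variance trend, a replicate block and leaving out each array. Same-numbered arrays of different groups did not deviate together, so the numbers were not taken as pairs. Gene and promoter sequences were not used here.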

Additional observations from a re-analysis of the deposited data

How the results depend on the processing

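Of the 50 passing changes of single genes among the 38, 21 passed in every alternative, 2 reversed in some alternative and 27 ended in at least 1, and the cause was not tested. Median centring turned QCR8 (-0.108) and ATP4 (-0.135) to lower in treated wild type, and it gave 27 genes in wild type and 5 in y1y8 against wild type. With only the compared groups 5 genes passed between yap1 and yap8, and with a variance trend 14 between y1y8 and yap8. With 1 array left out, which leaves fewer arrays, the counts ran from 2 to 9 for yap1 against wild type, from 3 to 7 for y1y8 against wild type, from 1 to 7 for yap1 against yap8, from 4 to 8 for y1y8 against yap8, and from 16 to 20 for wild type. No alternative gave a passing gene in the other 3 comparisons. INH1 passed in every alternative of the 5 comparisons in which it passed. Adding 16 before log2, leaving out dim genes and averaging probe sets left every count as it was.

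The replicate block gave 17 genes in wild type, 7 in yap1 and 10 in y1y8 against wild type, 9 between yap1 and yap8 and 7 between y1y8 and yap8. Deviations of same-numbered arrays correlated at -0.329 to 0.408 over 30 pairs of arrays, those of differently numbered arrays at -0.398 to 0.357 over 60, and 4 of 15 arrays correlated best with their own number. The number of arrays (3 per group) and the brightness of these probe sets, at which the scalings part, limit what small changes can show.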
